A study of Rattus norvegicus with 12 samples.

Results

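The let-7 family of microRNAs (miRNAs) was measured in the blood plasma of 12 female Wistar rats. Members were taken by name, as every probe called rno-let-7 together with rno-miR-98, which gave 8 of the 420 endogenous rat miRNA probes on the panel: let-7a, let-7b, let-7c, let-7d, let-7e, let-7f, let-7i and miR-98. The pregnant group held 6 rats in mid-gestation (E14.5), aged 103 to 373 days. The control group held 6 non-pregnant rats aged 110 to 269 days. Each group held 2 rats over 200 days old. Blood was drawn from the heart after death, the plasma was cleared of platelets, and RNA from 1.5 mL of plasma per rat was counted on the nCounter with the Rat v1.5 codeset. In this assay each miRNA is ligated to a DNA tag and hybridised to a reporter carrying a coloured barcode, and each barcode imaged adds 1 count.

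The let-7 miRNAs are among the most conserved small RNAs of animals. They were found in the nematode as regulators of developmental timing. In mammals their level is low in early embryos and rises as tissues differentiate, and the RNA-binding protein LIN28 blocks the maturation of their precursors. The mature miRNA guides Argonaute to messenger RNAs such as those of HMGA2, RAS and MYC proteins, mainly through the seed near its 5′ end. Let-7 miRNAs are present in many tissues and in blood cells, and are regularly found in plasma inside vesicles or bound to protein. A plasma level cannot tell a larger number of releasing cells apart from more RNA released per cell.

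The mature sequences are shown because the members share 1 seed and differ only by single bases outside it, while their counts in plasma differed widely. All 8 probes matched a RefSeq mature miRNA by name. The probe names give no arm, and they were matched to the 5p sequence. Sequences run 5′ to 3′ and the capitals mark the seed, bases 2 to 8.
rno-let-7a: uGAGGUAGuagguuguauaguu
rno-let-7b: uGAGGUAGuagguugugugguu
rno-let-7c: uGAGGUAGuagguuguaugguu
rno-let-7d: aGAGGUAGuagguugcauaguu
rno-let-7e: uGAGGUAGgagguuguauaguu
rno-let-7f: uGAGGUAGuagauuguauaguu
rno-let-7i: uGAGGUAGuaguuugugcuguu
rno-miR-98: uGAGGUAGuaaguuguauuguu

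All 8 sequences were 22 bases long. Set against let-7a, with positions counted from the 5′ end and the let-7a base given first, let-7c differed by A19G, let-7e by U9G and let-7f by G12A. The substitutions in let-7b were A17G and A19G, those in let-7d were U1A and U16C, and those in miR-98 were G11A and A19U. The most distant from let-7a was let-7i, with G12U, A17G, U18C and A19U. The 2 most abundant members, let-7b and let-7c, differed from each other by 1 base (G17A, with the let-7b base first). How far a probe for one member also counts its closest relatives was not measured here, so the levels of members that differ by 1 base are uncertain to that extent.

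These sequences lie at 11 places in the rat genome (RefSeq, build GRCr8). Copies of let-7a, let-7f and let-7d stand together on chromosome 17, at chr17:16320145-16320166, chr17:16320508-16320529 and chr17:16322273-16322294 on the plus strand. A copy of let-7c lies 386 bases before let-7b on chromosome 7, at chr7:118683636-118683657 and chr7:118684044-118684065 on the plus strand. On the X chromosome the other copy of let-7f, at chrX:24460052-24460073, is followed after 589 bases by miR-98 at chrX:24460663-24460684. The other copies lie alone or beside miRNAs of other families. They are let-7a at chr8:50805219-50805240, let-7c at chr11:29688127-29688148 and let-7e at chr1:67350243-67350264, all on the plus strand, and let-7i at chr7:60527935-60527956 on the minus strand. Since let-7a, let-7c and let-7f each have 2 copies with the same mature sequence, their counts cannot be assigned to a locus.

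Rats differed in their total of endogenous counts. Endogenous counts summed to 6969 to 10176 in control rats (median 9359) and to 5163 to 30301 in pregnant rats (median 11503), and pregnant replicates 5 and 6 stood apart with 24010 and 30301. Counts were therefore scaled by the trimmed mean of M values (TMM). Scaled values are given as CPM, the count for each 1000000 counts of effective library size. This divisor spanned 1.94-fold between rats, against 5.87-fold for the totals, so TMM removed only part of the difference in totals. For pregnant replicates 5 and 6 it was 14446 and 13664, and their scaled values keep much of their higher totals.

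The family was led by let-7b, let-7c and let-7d, and the other members were several-fold lower. The raw count of let-7b averaged 211 ± 182.7 (SD, n = 12 rats), which ranked it 10 of the 420 endogenous probes. Means were 104.8 ± 98.2 for let-7c (rank 18) and 87.75 ± 75.7 for let-7d (rank 22). Next came let-7f with a mean count of 26.6 ± 9.66, miR-98 with 23.8 ± 9.32 and let-7a with 23.3 ± 15.1, at ranks 60, 70 and 73. The lowest were let-7i with 10.7 ± 6.65 and let-7e with 8.67 ± 5.73 counts, at ranks 181 and 204. Ligation and hybridisation efficiency can differ between probes and was not measured here, so this order is one of counts.

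Neighbours in this order were not all separable. The let-7b count was above that of let-7c in 12 of 12 rats, by 1.56-fold to 3.75-fold (median 2.17). The count of let-7c was above that of let-7d in 6 rats and below it in 6, so this pair had no fixed order. For let-7d and let-7f, the former was higher in 11 of 12 rats. Between let-7f and miR-98 the order was 7 rats higher, 3 equal and 2 lower, and between miR-98 and let-7a it was 7 higher, 1 equal and 4 lower, so these 3 members also had no fixed order. The count of let-7a exceeded that of let-7i in 11 rats, whereas let-7i exceeded let-7e in only 6, with 2 ties. Across the 12 rats let-7b was the highest member in 11, and in the remaining rat, pregnant replicate 2, it was let-7f. That rat had the lowest endogenous total.

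**Figure D1:**
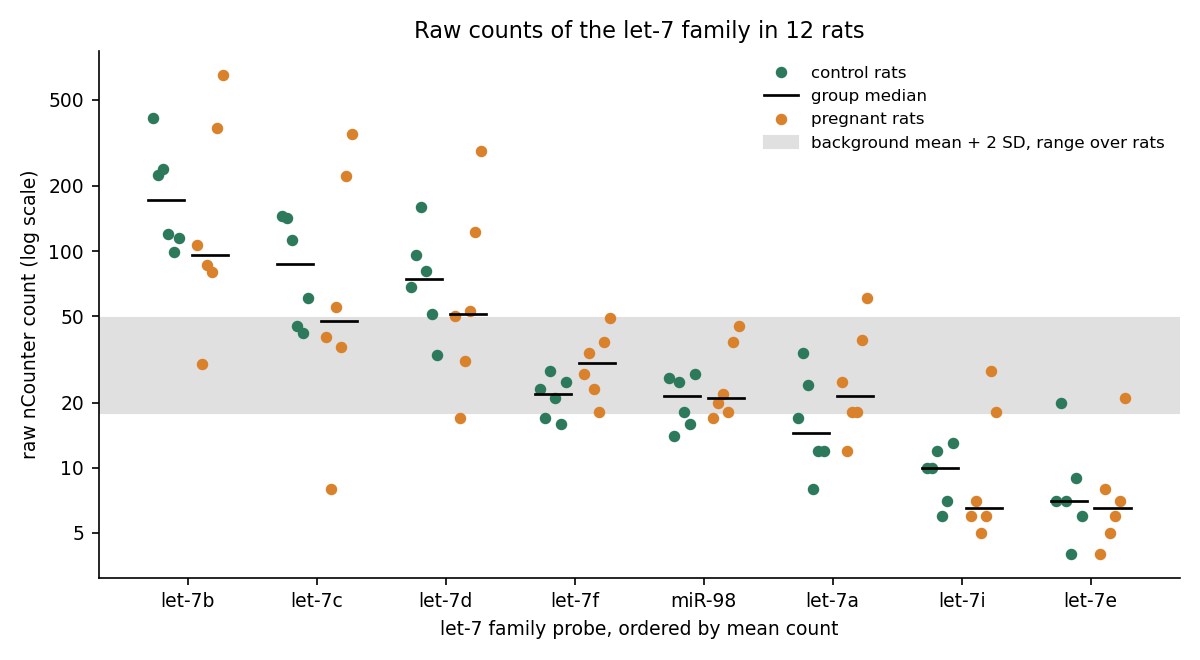
Raw nCounter counts (log axis) of the 8 let-7 family probes, ordered by mean count, with 1 point per rat for 6 control and 6 pregnant rats. The points of let-7b lie between 30 and 653 and those of let-7e between 4 and 21, and control and pregnant rats overlap for each of the 8 members.

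The low members sat close to the assay background. Background was set in each rat from 4 exogenous probes for plant and nematode miRNAs that were not spiked in. Their mean count lay between 7.25 and 15.75 over the rats (median 10.5), and their mean + 2 SD between 17.9 and 49.1 (median 25.8). In pregnant replicates 5 and 6, which had the highest endogenous totals, the mean was 12.5 and 11. What raised the totals of these rats was not tested. Against the mean + 2 SD, let-7b was above background in 12 of 12 rats, and let-7c and let-7d in 11 each. Thus 1 of the 8 members passed in all 12 rats, against 4.76% of all endogenous probes. The 3 middle members passed in fewer rats, let-7f and miR-98 in 6 each and let-7a in 3. For let-7f and for miR-98 those were 2 control and 4 pregnant rats. In all, 5 of the 8 members passed in at least 6 rats, against 13.8% of endogenous probes. Neither let-7i nor let-7e passed in any rat, as for 69% of endogenous probes, so their levels were not distinguishable from background by this measure.

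In raw counts the high members varied most between rats. They spanned 43.4-fold for let-7c, 21.8-fold for let-7b and 17.1-fold for let-7d, but 3.06-fold for let-7f and 3.21-fold for miR-98. After TMM scaling the coefficient of variation of let-7b was 51.0% in control and 86.7% in pregnant rats, and that of let-7f was 12.6% and 21.7%. In scaled values the high members did not stand apart from all others, since in control rats let-7e and let-7a reached 71.8% and 57.8%. Pregnant replicate 6, with the highest endogenous total, had the highest raw count of 7 members, and pregnant replicate 5 had that of let-7i.

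Of the leading members, let-7b and let-7c were most alike across rats. The 12 rats differ in total count, group and age, and correlations over them are given as a description. Log2 CPM of let-7b and let-7c had a Pearson r of 0.96 and a Spearman rho of 0.84. For let-7b and let-7d, r was 0.81 and rho 0.76, and r fell to 0.55 without pregnant replicates 6 and 2, the rats farthest from the median of the family mean. For let-7c and let-7d, r was 0.78 and rho 0.65, and r fell to 0.47 without them. For let-7b and let-7c it was 0.90 without these rats. Outside the leading members, let-7c and let-7i had an r of 0.55 and a rho of 0.69, with r at 0.68 without these rats. That value is uncertain, since let-7i was not above background in any rat. With let-7f, in contrast, let-7b had an r of -0.35. Within a rat the let-7b to let-7d ratio of counts ran from 1.48 to 6.03, a wider range than that of let-7b to let-7c. That width rested on control replicate 1 at 6.03, and the next highest rat was at 3.48. In pregnant rats the ratio ran from 1.51 to 3.00, narrower than the 1.56 to 3.75 of let-7b to let-7c.

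Together the 8 members made up 4.11% of all endogenous counts pooled over the rats. The share in single control rats was lowest at 3.41% (exact 95% binomial interval 3.04 to 3.81), with a median of 4.64% and a highest value of 7.18% (6.68 to 7.71). In pregnant rats it was lowest at 1.87% (1.64 to 2.12), with a median of 2.90% and a highest value of 4.90% (4.66 to 5.15). These intervals cover counting error only. The mean was 4.91% ± 1.55 in control rats and 3.09% ± 1.07 in pregnant rats (SD, n = 6 each), and the ranges overlapped. Of the family's counts let-7b gave 42.5%, let-7c 21.1% and let-7d 17.7%, and the other 5 members between 1.74% and 5.35% each.

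A share depends on what else was in the plasma. The denominator holds miR-122, a liver miRNA that ranked first on the panel, with 115 to 2632 counts in control rats and 67 to 5714 in pregnant rats. Without miR-122 in the denominator the family's share was 5.50% ± 2.06 in control and 3.85% ± 1.22 in pregnant rats. With the mean of the exogenous probes subtracted from every probe it was 6.10% ± 2.45 and 3.21% ± 1.24, and the ranges still overlapped. After TMM scaling the family summed to 29232 to 67998 CPM in control rats (median 47488) and to 17121 to 108606 CPM in pregnant rats (median 31496). The means were close, at 48378 ± 18082 and 46588 ± 33442 CPM, but the pregnant mean rested on replicates 5 and 6 at 59878 and 108606, and the other 4 pregnant rats lay between 17121 and 31626. The ranges of the groups overlapped.

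**Figure D2:**
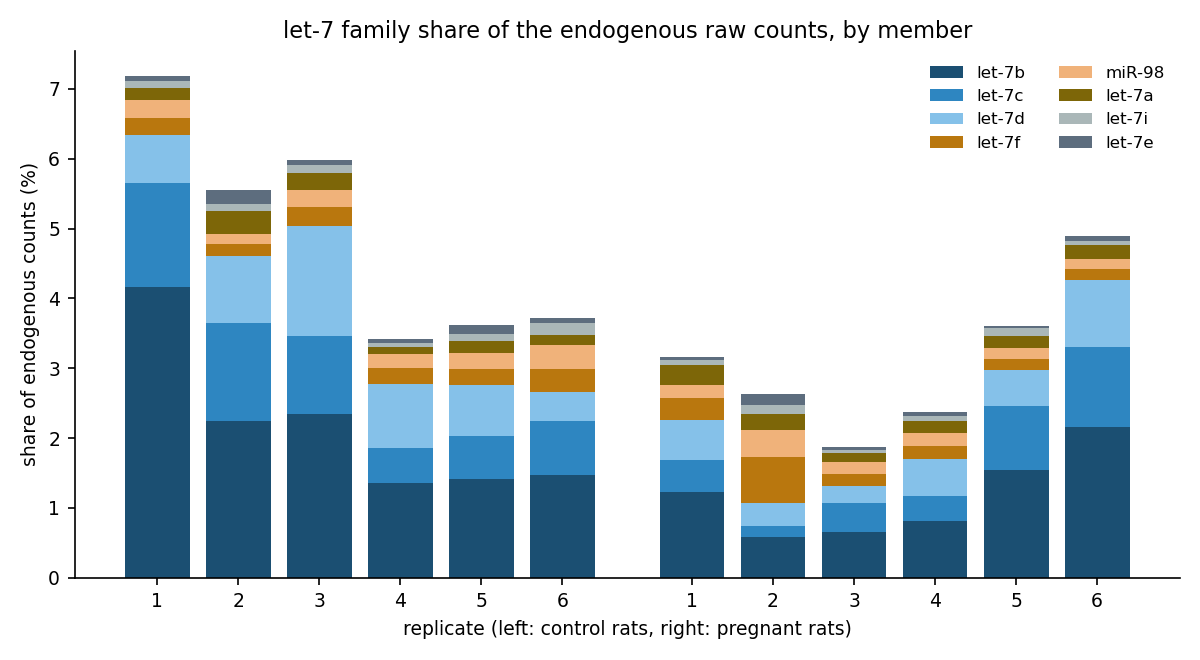
Share of the endogenous raw counts (%) held by each let-7 family member in each rat, stacked, with control replicates 1 to 6 on the left and pregnant replicates 1 to 6 on the right. The stacks reach 3.41% to 7.18% in control rats and 1.87% to 4.90% in pregnant rats, and let-7b, let-7c and let-7d fill most of each stack except in pregnant replicate 2.

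The study used pregnant and non-pregnant rats to see how choices made in nCounter analysis affect which circulating miRNAs are reported as changed. In some of its workflows the study listed let-7d and let-7b as higher in controls. By quantitative PCR both changed in that direction, but neither reached significance there. No let-7 family member passed the test used here. The filter of at least 10 counts in at least 6 rats left 187 probes and 7 of the 8 members, and let-7e was read from a fit without the filter. In edgeR's quasi-likelihood test, 0 of the 7 members had an adjusted p under 0.05, against 0% of the 187 probes. With an unadjusted p under 0.05 there was 1 member, let-7f, against 5.88% of all probes tested. For 0 of the 7 members were the CPM ranges of the groups apart, again against 0%. Pregnant rats were higher by fold change for 4 of the 7 members, against 55.6% of all probes tested, and the median log2 fold change was 0.10 for the members and 0.05 for all probes.

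The level of let-7f came closest to a difference. In control rats it had 16 to 28 raw counts (median 22) and in pregnant rats 18 to 49 (median 30.5). In CPM the controls ran from 2007 to 2763 and the pregnant rats from 2422 to 4280, so the groups overlapped, although all 6 pregnant rats lay above the control mean of 2325 ± 292. The log2 fold change was 0.43 (SE 0.18, 95% interval 0.05 to 0.81). Before adjustment p was 0.0300 by edgeR and 0.0152 by a two-sided exact permutation test of log2 CPM, and after adjustment it was 0.670 by edgeR and 1 by the permutation test. Over 27 alternatives its unadjusted p lay between 0.0152, by the exact permutation test, and 0.814, with plain library size, and it was 0.05 or more in 16 of them. An adjusted p of 0.670 was also the smallest among the 187 probes.

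Of its neighbours on chromosomes 17 and X, let-7a and miR-98 gave smaller or less certain differences in the same direction. The third, let-7d on chromosome 17, did not share that direction, with a log2 fold change of -0.11 (SE 0.49). For let-7a, control rats had 8 to 34 counts and pregnant rats 12 to 61, or 924 to 4015 CPM (median 1584) and 1511 to 4464 CPM (median 2561), and 5 of 6 pregnant rats lay above the control mean. Its log2 fold change was 0.50 (SE 0.33, adjusted p = 0.732 by edgeR). For miR-98, the counts were 14 to 27 (median 21.5) and 17 to 45 (median 21), with a log2 fold change of 0.21 (SE 0.18, adjusted p = 0.797 by edgeR). In each case the ranges overlapped. The group medians of let-7f, let-7a and miR-98 differed by fewer than 10 raw counts.

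For the abundant members the groups were spread too widely to separate. The let-7b count was 99 to 410 in control rats (median 172.5) and 30 to 653 in pregnant rats (median 96.5). In CPM that was 21265 ± 10844 against 18482 ± 16017, a log2 fold change of -0.20 (SE 0.54, 95% interval -1.35 to 0.96, adjusted p = 0.967 by edgeR). Only pregnant replicates 5 and 6 lay above the control mean. The interval leaves room for a more than 2-fold difference downwards and for one just under 2-fold upwards.

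The same pair of rats carried let-7c and, in part, let-7d. The let-7c count was 42 to 146 in control rats (median 87) and 8 to 347 in pregnant rats (median 47.5), with a log2 fold change of -0.0017 (SE 0.58, adjusted p = 0.998 by edgeR). For let-7d the counts were 33 to 160 (median 74.5) and 17 to 290 (median 51.5), with a log2 fold change of -0.11 (SE 0.49, adjusted p = 0.967 by edgeR). Pregnant replicate 6 alone exceeded the control mean of let-7d in CPM. The 2 members at background gave log2 fold changes of 0.10 (SE 0.28) for let-7i, at 6 to 13 counts in control and 5 to 28 in pregnant rats, and -0.16 (SE 0.43) for let-7e, at 4 to 20 and 4 to 21 counts.

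**Figure D3:**
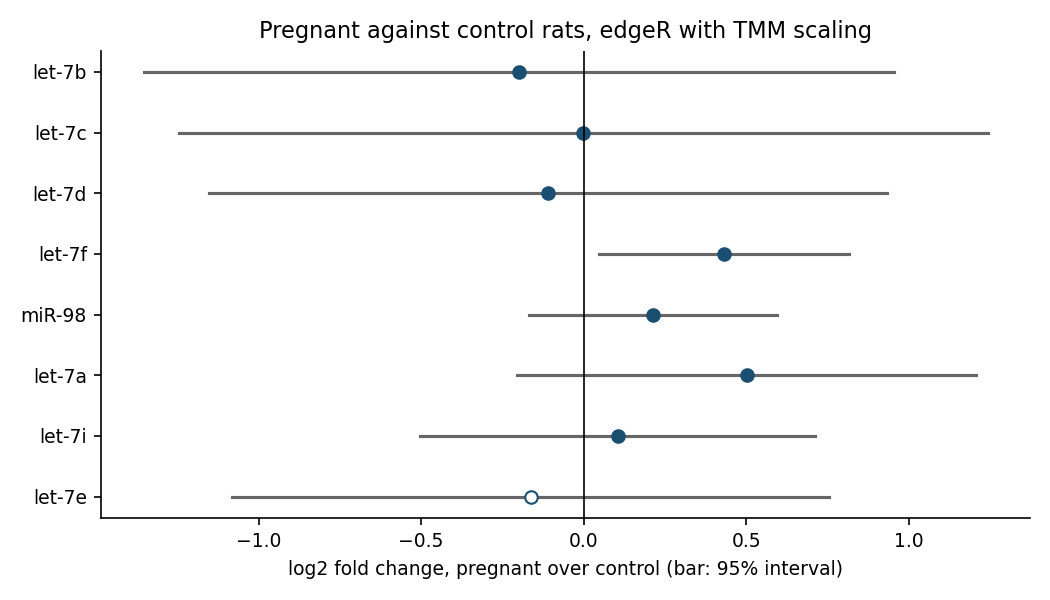
Log2 fold change of each let-7 family member, pregnant over control rats (6 each), from edgeR with TMM scaling, with bars for the 95% interval. The interval of let-7f runs from 0.05 to 0.81, those of the other 7 members include 0, and those of let-7b, let-7c and let-7d are the widest.

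The values of the 3 leading members rested on pregnant replicates 5 and 6. Without both rats, an alternative chosen after seeing the data, the log2 fold change was -1.22 for let-7b, -1.22 for let-7c and -0.95 for let-7d. Adjusted p by edgeR was 0.407, 0.407 and 0.479, and unadjusted p by edgeR was 0.014, 0.026 and 0.040. An unadjusted p under 0.05 was thus found for 3 of the 6 members tested there, against 15 of 169 probes. Both rats, which had the highest endogenous totals, also had the highest summed raw counts of red cell and platelet miRNAs. Of 3 red cell miRNAs listed, miR-451 and miR-144 were in the table analysed, and they summed to 149 to 737 counts in control and 55 to 2672 in pregnant rats, with 2672 and 1406 in replicates 5 and 6. The platelet list of 3 (miR-223, miR-126 and miR-24) summed to 65 to 168 and 26 to 842, with 490 and 842 in these rats. In every rat miR-24 had a count of 1, the lowest in the table. The study mentions reports of miR-223 in granulocytes and of miR-126 in endothelium, so this list is not specific to platelets. The liver list of 3 (miR-122, miR-192 and miR-148b-3p) summed to 152 to 2659 and 91 to 5742, with 1256 and 5563. No probe of the 3 lists passed the adjusted threshold between groups, and the part of these sources in the let-7 values was not tested.

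The direction of a member also depended on the scaling between rats. Under 6 scalings in the same edgeR model, the median log2 fold change of all probes tested moved from 0.05 with TMM to -0.32 with plain library size, so members are best read against that median. Relative to it, let-7a (0.31 to 0.45) and let-7f (0.38 to 0.42) were above the median under all 6, and miR-98 was as well (0.07 to 0.17). Below it under all 6 were let-7b (-0.59 to -0.25), let-7c (-0.46 to -0.05) and let-7d (-0.45 to -0.16), while let-7i lay on either side. For let-7e the difference was -0.44 to -0.07. Its fold changes came from separate fits without the filter, so they are not strictly comparable with that median, and let-7e was above background in no rat. The 6 scalings use the same counts and change only 1 factor per rat, which moves all probes nearly together. Agreement among them is therefore not independent support for a direction. No member had an adjusted p under 0.05 by edgeR with any of them. With plain library size the unadjusted p of let-7f was 0.814.

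**Figure D4:**
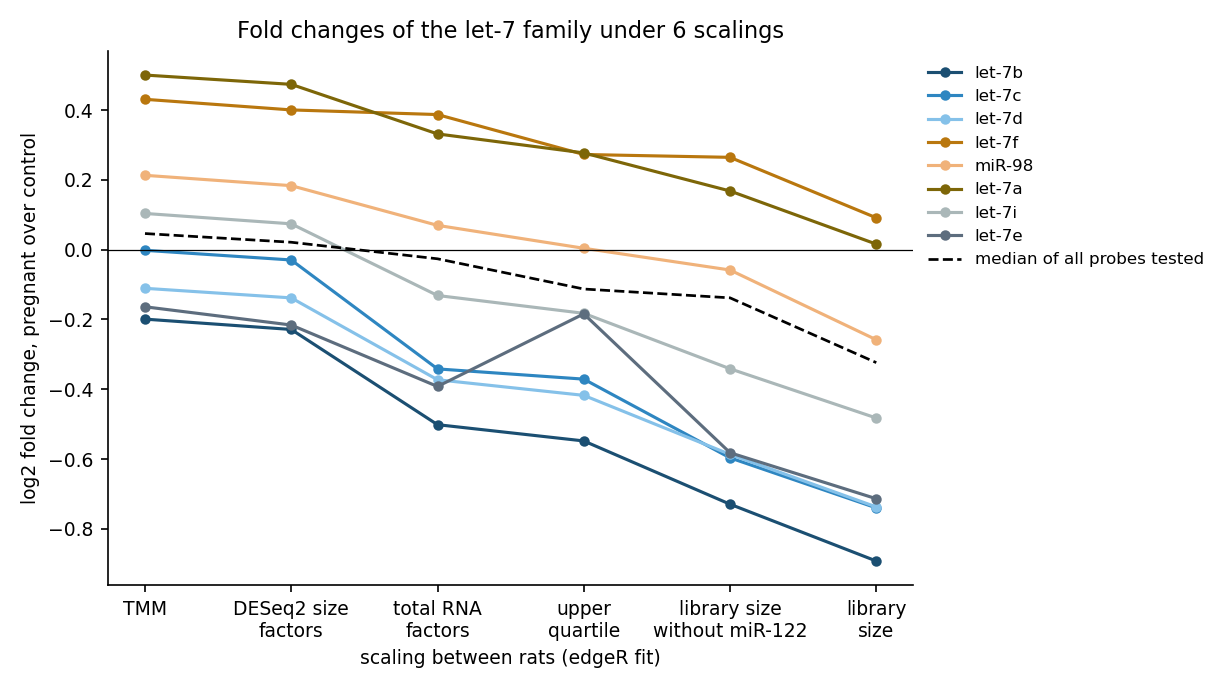
Log2 fold change, pregnant over control rats, of the let-7 family members under 6 scalings between rats in edgeR, from TMM on the left to plain library size on the right. Values of let-7b go from -0.20 to -0.89 and those of let-7f from 0.43 to 0.09, as the median of all probes tested goes from 0.05 to -0.32. Those of let-7e come from separate fits without the filter on low counts.

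Ages differed within both groups, and by value let-7b and let-7c were higher in the older than in the younger controls. The 2 controls over 200 days had 225 and 410 let-7b counts (26567 and 39433 CPM), above the 4 younger controls at 99 to 239 counts (11513 to 23582 CPM). In pregnant rats the 2 older animals had 86 and 107 counts, inside the range of the 4 younger ones at 30 to 653. The log2 fold change of let-7b was 0.52 among younger and -1.52 among older rats, and that of let-7c was 0.75 and -1.42. The younger pregnant rats included replicates 5 and 6, which had the highest endogenous totals. These 2 rats had 25543 and 47790 let-7b CPM and 15437 and 25395 let-7c CPM. Younger pregnant replicates 2 and 4 had 3777 and 10766 let-7b CPM, below all 4 younger controls. Their let-7c was 1007 and 4845 CPM, also below the younger controls at 5196 to 11150 CPM. The positive values in younger rats thus rested on replicates 5 and 6, and the ages were not compared without them. The test of the difference between the ages, also added after seeing the data, gave an adjusted p of 0.729 by edgeR for both, with 0 of 187 probes passing. With 2 older rats per group these values are weakly determined.

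Some let-7 loci also give miRNAs annotated on the opposite strand, named miR-3596, and miR-3596b, miR-3596c and miR-3596d of the 4 listed were in the table analysed. Their sequences are shown because each is the exact reverse complement of a stretch of a member, so that probes for both strands of 1 site were on the panel. What the miR-3596 probes count could not be checked from these data. The capitals mark the complement of the let-7 seed, all or in part.
rno-miR-3596b: aacuaugcaaccuaCUACCU
rno-miR-3596c: acuauacaaccucCUACCUCa
rno-miR-3596d: cuauacaaucuaCUACCUCa

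By position, miR-3596b covers bases 3 to 22 of let-7d (chr17:16322275-16322294, minus strand), miR-3596c bases 1 to 21 of let-7e (chr1:67350243-67350263, minus strand) and miR-3596d bases 1 to 20 of the let-7f copy on chromosome 17 (chr17:16320508-16320527, minus strand). Counts of miR-3596c were 64 to 98 over the 12 rats (mean 79.5 ± 9.76), the narrowest range of the 3 at 1.53-fold, and were above background in all 12. It was higher than let-7e in 12 of 12 rats, and since let-7e was not above background in any rat, no ratio of these probes is given. Counts of miR-3596b were 10 to 27 and lay below let-7d in 11 of 12 rats. Counts of miR-3596d were 13 to 24, below let-7f in 11 of 12 rats and above background in none.

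Counts of these probes stayed in a narrow range in the rats with the highest endogenous totals as well. In pregnant replicate 6, where let-7d had 290 counts, miR-3596b had 23. Between groups the log2 fold changes were 0.06 for miR-3596b, 0.03 for miR-3596c and 0.11 for miR-3596d, with adjusted p of 0.967, 0.972 and 0.967 by edgeR.

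**Figure D5:**
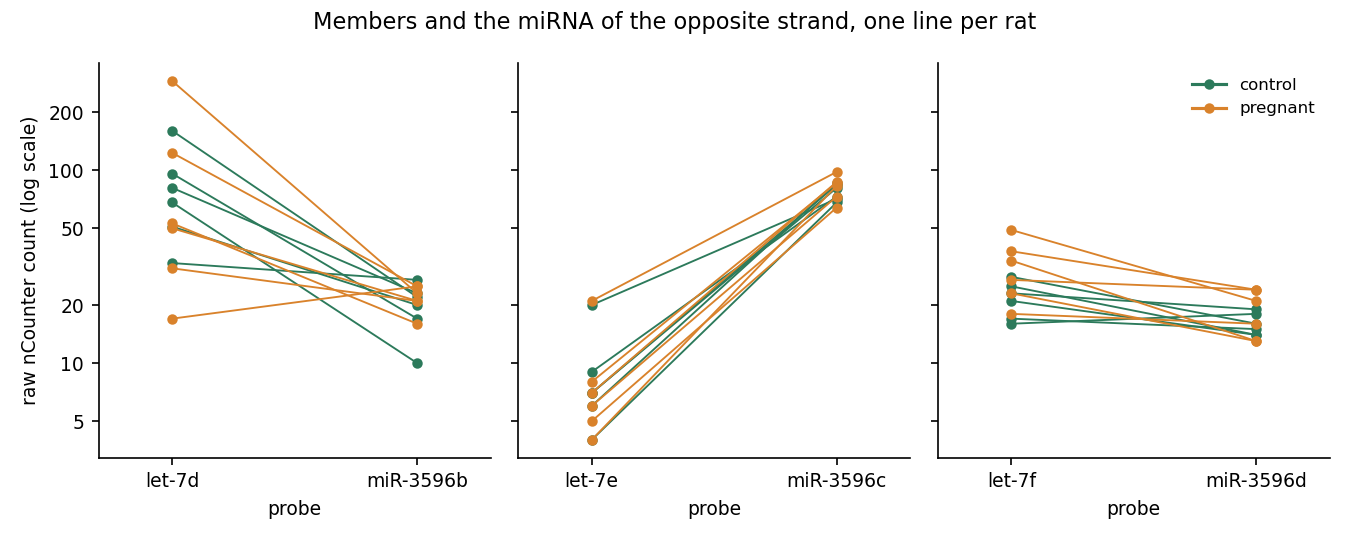
Raw counts (log axis) of let-7d, let-7e and let-7f beside the opposite-strand probes miR-3596b, miR-3596c and miR-3596d, with 1 line per rat. The lines rise from let-7e to miR-3596c in all 12 rats and fall from let-7d to miR-3596b and from let-7f to miR-3596d in 11 of 12.

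Several members lie beside miRNAs of the miR-99/100 and miR-125 families, with which they are known to share primary transcripts. On chromosome 1, let-7e starts 151 bases after miR-99b and ends 424 bases before miR-125a. A copy of let-7a lies 6890 bases after miR-100 on chromosome 8, and a copy of let-7c lies 44439 bases before miR-125b on chromosome 11. Of 5 such probes, miR-125a-5p, miR-125b-5p and miR-99a passed the filter and 0 passed the adjusted threshold. The log2 fold changes were -0.37 (SE 0.32) for miR-125a-5p, 0.61 (SE 0.54) for miR-125b-5p and -0.41 (SE 0.17) for miR-99a, with adjusted p of 0.797, 0.797 and 0.670 by edgeR. Encoded beside let-7e, miR-125a-5p averaged 21.2 ± 11.7 counts and was above the background mean + 2 SD in 4 of 12 rats. Above it in 2 rats each were miR-125b-5p, in pregnant replicates 5 and 6, and miR-99a. The related miRNA miR-202, whose probe name gives no arm, had 12 to 22 counts in control and 6 to 17 in pregnant rats. Its log2 fold change was -0.40 (SE 0.23, adjusted p = 0.732 by edgeR), and it was above that background in 0 rats. These fold changes thus rest largely on counts near background.

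The probes whose pattern over the 12 rats was most like the mean log2 CPM of the 7 members were miR-29c, miR-125b-5p, miR-145, miR-29a and miR-27b, of 180 probes compared with a median r of 0.01. Their Pearson r was 0.83, 0.82, 0.81, 0.80 and 0.80, and Spearman's rho was 0.84, 0.66, 0.73, 0.69 and 0.63. Without pregnant replicates 6 and 2, r was 0.65, 0.76, 0.69, 0.49 and 0.43, so the likeness of miR-29a and miR-27b rested largely on these rats. These values are a description, since all probes of a rat share its total count and scaling. The probe of miR-125b-5p was above background only in pregnant replicates 5 and 6. Of the opposite-strand probes, r with the same mean was -0.67 for miR-3596b, -0.74 for miR-3596c and -0.22 for miR-3596d, with a rho of -0.91, -0.60 and 0.06. Their raw counts stayed in a narrow range, so division by the effective library size shapes their CPM. For miR-3596c, pregnant replicate 6 had 98 counts and 7172 CPM, and replicate 2 had 86 counts and 10826 CPM. The negative values therefore cannot be told apart from an effect of scaling.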

How the data were processed

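The authors deposited raw nCounter counts per probe, with no background correction or normalisation, and all 12 samples were run on 1 cartridge. The table analysed held 429 probes, namely 420 endogenous, 5 exogenous and 4 mRNA probes. No sample column beyond those of the 12 rats was present (0 unused), and 0 of 66 pairs of rats had identical counts. Each rat was 1 replicate, grouped from the sample labels. The negative control probes were not used here, and the 4 exogenous probes without a spike-in stood in for them.

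Testing kept the endogenous probes that reached 10 counts in 6 or more rats. They were compared with edgeR 4.0.16 (TMM, glmQLFit and glmQLFTest, R 4.3.3), with Benjamini-Hochberg adjustment over 187 probes. The standard error was the absolute log2 fold change over the square root of F, and log2 CPM used a prior count of 2. DESeq2 1.42.0, limma 3.58.1, exact permutation tests and Welch's t-test were alternatives, besides other scalings, filters, backgrounds, an age covariate and leaving out each rat. The study also used Welch's t-test. Here it ran on the 187 filtered probes, scaled by 38 total RNA probes chosen against the exogenous probes. The study also normalised to positive controls and chose its total RNA probes against negative controls, so its workflows were not reproduced. Named probes were all members, listed relatives and the 5 probes most like the members' mean. The members and lists were chosen with earlier results of these data known. Sequences and positions are from RefSeq (GRCr8).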

Additional observations from a re-analysis of the deposited data

Results flagged for a closer look

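Among 24 groups of 6 values checked (each member's CPM, and the family's shares and ratios, in each group), 3 held a rat set far apart from the other 5. Chance alone marks about 1 group in 20. For let-7d in pregnant rats, the gap between the highest rat and the next was 0.666 of the whole range, above the critical value of 0.625. That rat was pregnant replicate 6, with 290 counts and 21224 CPM. For let-7e in control rats the gap was 0.638 of the range, from control replicate 2 with 20 counts and 2362 CPM, a count within the background. For the share of let-7b, let-7c and let-7d in the family's counts, the gap was 0.64 of the range in pregnant rats, where replicate 2 had 40.4% and the highest rat 86.9%. In control rats this share was 71.6% to 88.3%. Pregnant replicate 2 also had the lowest endogenous total.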

How the results depend on the processing

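Over 27 alternatives, 12 of them leaving out 1 rat, 0 of 208 log2 fold changes of members had an adjusted p under 0.05, and 23 had the opposite sign to the reported value. For let-7i the value became -0.48 with library size, -0.34 with library size without miR-122, -0.18 with upper quartile factors, -0.13 with total RNA factors, -0.52 without both deep pregnant rats, -0.054 in the exact permutation test and -0.14 in the methods' t-test. For miR-98 it became -0.26 with library size and -0.058 with library size without miR-122, and for let-7c 0.10 with no filter and 0.060 with age as a covariate. Other values moved by over 1.5 times with their sign kept. A further alternative subtracted the background mean, set values below 1 to 1 and used total RNA factors in place of TMM. There let-7a was at 1.84, let-7f at 0.79, let-7i at 0.90, miR-98 at 0.43, let-7b at -0.70, let-7c at -1.10 and let-7d at -0.55. Since let-7i exceeded the background mean in only 4 of 12 rats, its value there rested largely on that floor. With limma-voom, let-7b was at -0.66, let-7c at -0.78 and let-7d at -0.55. Leaving out 1 rat at a time gave -0.79 to 0.066 for let-7b, -0.61 to 0.20 for let-7c, -0.73 to 0.14 for let-7d, -0.54 to 0.29 for let-7e, -0.20 to 0.20 for let-7i, 0.23 to 0.81 for let-7a, 0.30 to 0.49 for let-7f and 0.07 to 0.27 for miR-98. Without pregnant replicate 6, let-7b was at -0.79, let-7c at -0.61 and let-7d at -0.73. The cause of these changes was not tested.

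Probes with an unadjusted p under 0.05 numbered 11 with TMM, 19 with library size and 6 with library size without miR-122. They numbered 7 to 19 with 1 rat left out and 15 without pregnant replicates 5 and 6. There were 4 with total RNA factors, 20 with no filter and 3 with at least 20 counts. DESeq2 gave 8, limma-voom 6, exact permutation 6 and Welch's t-test as run here 1, with 0 called after adjustment in each setting. With the replicate number as a block, 3 probes had an unadjusted p under 0.05, and let-7i was at -0.0016. Same-numbered rats correlated between -0.34 and 0.27, so the numbers did not pair the rats. The family's share differed by -1.82 percentage points, pregnant minus control, and by -2.18 to -1.37 with each rat left out. The difference was -2.89 points with the background mean subtracted and -1.65 points without miR-122. The order of the 8 members did not change with background subtraction or in CPM. Members above background in at least 6 rats were 5, or 6 with a level of the mean or the mean + 1 SD. Below their filters, let-7e had no value in the other tests, nor let-7a and let-7i at 20 counts.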
